A study of Saccharomyces cerevisiae with 23 samples.

Results

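Splicing of yeast introns was compared between a mud1 mutant and wild type after 48 h of culture. The 9 libraries compared were those titled mud1, WTa and WTb at 48 h, 3 of each, out of 23 libraries in the study. All were Saccharomyces cerevisiae of BY background in minimal medium with 2% glucose, a stage that the labels call saturation or stationary phase. The mutant genotype is written mud1D in the labels. WTa and WTb are separate wild-type sets with no other difference named, so the main counts are given against both sets together and against each set alone. Pooled wild type stands for both sets together, the mean of the changes against each. Groups of genes, sequence classes, paralogue pairs and log phase are compared with pooled wild type unless a set is named. Multiplexed primer extension sequencing copies chosen RNAs from primers placed next to their introns, so that most reads show whether the intron was still present. For each intron the tables give a premature (intron-containing) and a mature (spliced) count. The premature share is the premature count as a percentage of both. The labels do not say whether replicates came from separate cultures, so the spread between libraries may be technical. Strain names in the labels recur between mud1 and WTa libraries and differ within each set.

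Mud1 is a protein of the yeast U1 small nuclear ribonucleoprotein, the particle that recognises the 5′ splice site at the start of an intron, and is related to an RNA-binding protein of the animal U1 particle. It is not essential for growth, and cells are known to tolerate its loss unless other early splicing factors are impaired as well. After U1 binding, the branch site near the end of the intron is recognised, and U6 RNA replaces U1 at the 5′ splice site before cutting. Most yeast introns start with the same bases and share the branch sequence TACTAAC. A large part of the yeast genes that carry introns encode ribosomal proteins.

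The libraries held 3343811 to 3392015 counts in mud1 and 4369685 to 5910393 in wild type. Mud1 libraries were thus all shallower than wild-type ones, and the part of depth in the results was not tested. The 10 largest targets took 25.06% to 26.89% of a library. Of 284 introns in the tables, 265 introns of 257 genes were tested, those listed in every library and averaging 20 counts or more, a minimum that removed none of the introns listed in every library. Of these, 103 lie in ribosomal protein genes, taken as those with RPL or RPS names, and 162 in other genes. RPP1B and ASC1 are thus counted among the others. The targeted gene was checked first. MUD1 itself holds an intron (chromosome II, 479346 to 479434, build R64). It had 4894, 5425 and 5543 mature counts in the WTa libraries and 2767, 3399 and 2474 in the WTb libraries. No mud1 library at 48 h listed the MUD1 target, so MUD1 was not among the tested introns. The target was listed in 18 of the 23 libraries, more than wild type and nam8D together supply, so in mud1 log phase as well. The check of the genotype therefore covers the 48 h libraries only.

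The introns on which the results turn most are shown by their first bases, read from the R64 genome with the 6 bases of the 5′ splice site in capitals. The first 3 belong to introns among those with the largest rises, and the next pair to introns whose premature share fell. The last 5 belong to introns with the smallest changes against pooled wild type among those with a mean over 500 counts. Of these, CMC2 changed in opposite directions against WTa and WTb, as given below.
REC107 (chrX:469244-469263, minus strand): GTTCGTaccaacacagtgca
DBP2 (chrXIV:414912-414931, plus strand): GTATGTtaaaattttctcca
SRC1 (chrXIII:211445-211464, plus strand): GTGAGTacaatttattatct
RPS9A (chrXVI:404957-404976, plus strand): GTACGTcgttaatcttctcc
RPS14B (chrX:73797-73816, plus strand): GTACGTgaaaggggtgatat
RPL43B (chrX:608307-608326, plus strand): GTATGCatataatagaggaa
GIM5 (chrXIII:82291-82310, plus strand): GTATGTaaatgaatagctcc
HOP2 intron 2 (chrVII:436313-436332, plus strand): GTATGTattttgaacatttt
RPL31A (chrIV:322283-322302, plus strand): GTATGTgaaagaataaaaat
CMC2 (chrII:110486-110505, minus strand): GTAAGTatccagattttact

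These sequences showed no single 5′ splice site on either side. DBP2 rose with the usual GTATGT, and GIM5, HOP2 intron 2 and RPL31A carried the same bases with changes near 0. REC107 and SRC1 carry rare sites. Both introns that fell, RPS9A and RPS14B, begin with GTACGT. BMH2 and SIM1, named below, have no annotated intron in the genome annotation used. The pair that fell was chosen for display after its values were seen. The branch regions of that pair and of DBP2 and MND1, the latter also chosen after its values were seen, are shown with the matched branch heptamer in capitals.
DBP2 branch region: ccaaatTACTAACagtatg
RPS14B branch region: tctgttTACTAACaactat
RPS9A branch region: agcgctCACTAACaatggt
MND1 branch region: actgaaCACTAACttatag

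Unspliced RNA was higher in mud1 for most introns. The median premature share over all tested introns was 8.72%, 9.13% and 9.05% in the mud1 libraries. It was 4.55%, 4.40% and 4.22% in WTa, and 5.65%, 5.12% and 6.30% in WTb. Every mud1 library lay above all 6 wild-type libraries, and WTa and WTb did not overlap each other. The means were 8.97% ± 0.222 (SD, n = 3) in mud1 and 5.04% ± 0.811 (SD, n = 6) in pooled wild type, a difference of 3.93 percentage points with an exact two-sided permutation p of 0.0238, the smallest that 3 libraries against 6 can give (0.0714 after Benjamini-Hochberg adjustment over 9 such tests). Against 1 set alone, 3 against 3 libraries cannot go below p = 0.1, which is what the exact permutation test gave for both.

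Ribosomal protein introns were spliced more completely than the rest in every library, and their share was higher in mud1 too. Their median share was 2.11%, 2.06% and 2.40% in mud1, against 1.03%, 0.992% and 0.981% in WTa and 1.31%, 1.17% and 1.19% in WTb. The other introns had medians of 15.7%, 16.8% and 16.2% in mud1, against 7.27%, 7.38% and 6.45% in WTa and 10.2%, 8.83% and 10.5% in WTb. As ratios of the means, mud1 was 1.97 times wild type for ribosomal protein introns and 1.93 times for the others. For both classes the exact permutation p against pooled wild type was again 0.0238 (adjusted 0.0714). A mean share over 50%, where unspliced RNA was the larger part, was reached by 30 introns in mud1, 16 in WTa and 19 in WTb.

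**Figure D1:**
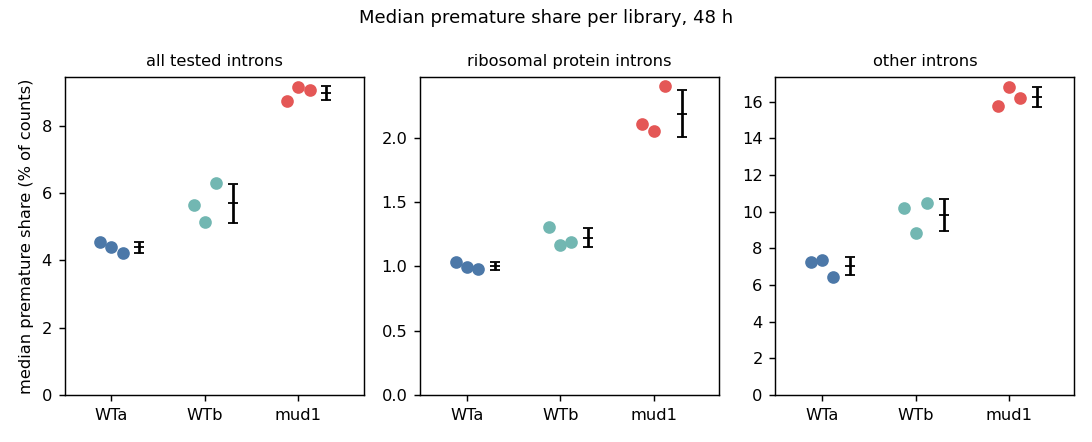
Median premature share per library at 48 h (% of counts, axis from 0) for all tested introns, ribosomal protein introns and other introns, with 3 libraries a group as points and the group mean ± SD in black beside them. In each panel the 3 mud1 libraries lie above all wild-type libraries, and WTb lies above WTa.

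Intron by intron, premature over mature rose for 240 of 265 introns (90.6% of those tested) and fell for 3 (1.13%) against pooled wild type, by edgeR's quasi-likelihood test with Benjamini-Hochberg adjusted p under 0.05. The median change was 1.11 on the log2 scale, which is 2.15-fold, and 151 introns had a value above 1 on that scale. Standard errors and p-values of this test rest on the spread between libraries within a group. The mud1 libraries form a single set, so differences between sets, such as those between WTa and WTb given below, are not in them. Against WTa, 239 rose (90.2%) and 5 fell (1.89%), with a median of 1.32. Against WTb, 225 rose (84.9%) and 4 fell (1.51%), with a median of 0.80. Introns higher against both sets numbered 217, and 3 were lower against both, RPS9A, SIM1 and RPS14B. CMC2, which encodes a mitochondrial protein needed for cytochrome oxidase biogenesis, was the single intron called in opposite directions: its log2 change was 0.50 against WTa and -0.66 against WTb. Without any test, mud1 shares lay above those of all 6 wild-type libraries for 211 introns (79.6%) and below them for 3 (1.13%).

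These counts describe changes in ratio within each intron's own RNA. When every library was centred on its median intron, 117 introns lay above the library-wide shift and 60 below it (limma, adjusted p under 0.05), and the median change moved from 1.11 to 0.20 on the log2 scale. An intron at the library-wide shift thus rose by less than the median change, and a centred value between the shift and 0.20 is still below that median. Rises below are in uncentred values, and centred values are added for the groups of genes and for some introns. For the largest rises named below, centred values were 2.26 for REC107, 2.13 for DBP2, 1.70 for SRC1, 1.64 for BMH2 and 1.64 for RPL18B. They were 1.59 for DMC1, 1.55 for RPL16B, 1.47 for RAD14 and 1.42 for RPS0A. For the introns whose share fell, they were -2.65 for RPS9A, -2.11 for SIM1 and -1.66 for RPS14B.

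The introns with the largest rises lie in genes of various functions. REC107, which is needed to start meiotic recombination and whose intron is spliced efficiently only in meiosis, was mostly unspliced in wild type and almost wholly so in mud1. Its premature share was 89.2%, 86.6% and 86.9% in WTa, 89.9%, 89.0% and 90.0% in WTb, and 98.2%, 98.8% and 98.9% in mud1. The log2 change was 3.14 ± 0.24 (SE; adjusted p = 7.9e-14, edgeR). The spliced REC107 RNA fell from a mean of 23.5 ± 8.11 CPM (counts scaled to the library total) in wild type (SD, n = 6) to 3.38 ± 1.69 (SD, n = 3), without overlap.

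DBP2, a DEAD-box RNA helicase whose protein lowers the expression of its own intron-containing gene, showed the second largest rise. Its premature share was 42.7%, 35.2% and 40.7% in WTa, 42.1%, 47.7% and 33.1% in WTb, and 87.6%, 84.9% and 80.6% in mud1. The wild-type sets overlapped, and every mud1 library lay above them. The log2 change was 3.02 ± 0.15 (SE; adjusted p = 2.6e-18, edgeR). Mature DBP2 RNA was 79.7 ± 16.0 CPM in mud1 (SD, n = 3) and 330.1 ± 53.1 in wild type (SD, n = 6), while premature RNA was 432 ± 29.0 and 220.4 ± 26.4 CPM. The sum of both was 512 ± 13.2 and 550.5 ± 52.5 CPM and did not pass the test of abundance (adjusted p = 0.19, edgeR).

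BMH2, which encodes a 14-3-3 protein that binds phosphorylated partners, had the same low share in both wild-type sets. It was 11.03%, 7.85% and 8.23% in WTa and 7.91%, 8.42% and 8.25% in WTb, against 33.7%, 36.5% and 35.8% in mud1. The log2 change was 2.55 ± 0.11 (SE; adjusted p = 9.0e-20, edgeR). BMH2 was an abundant target, with 12031, 9697 and 8525 CPM in mud1.

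SRC1 encodes an inner nuclear membrane protein whose RNA is alternatively spliced from overlapping 5′ splice sites. Its share was 22.9%, 23.7% and 21.4% in WTa, 45.1%, 46.0% and 46.4% in WTb, and 70.3%, 77.0% and 77.5% in mud1. The wild-type sets stood apart from each other, and the log2 change was 3.37 against WTa and 1.83 against WTb. RAD14, a DNA damage recognition factor of nucleotide excision repair, went from 17.9%, 18.8% and 15.1% in WTa and 25.3%, 26.6% and 30.5% in WTb to 56.8%, 59.9% and 60.9% in mud1. DMC1, the meiotic strand-exchange protein, went from 12.03%, 8.85% and 8.46% in WTa and 14.2%, 14.1% and 15.7% in WTb to 44.6%, 45.2% and 40.4%. In RAD14 and DMC1, as in SRC1, all mud1 libraries lay above all wild-type libraries.

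Ribosomal protein introns were also among the largest rises. RPL18B, of the large subunit, was nearly unspliced throughout, at 89.3%, 88.7% and 89.5% in WTa, 95.4%, 95.7% and 94.2% in WTb, and 99.2%, 98.5% and 98.2% in mud1. Its log2 change was 2.54, and all mud1 libraries lay above all wild-type libraries. RPL16B went from 0.692%, 0.909% and 0.895% in WTa and 1.51%, 1.52% and 1.07% in WTb to 5.69%, 5.10% and 5.82%, a log2 change of 2.44. RPS0A stayed under 1% in all libraries, at 0.0474%, 0.0522% and 0.0543% in WTa, 0.266%, 0.314% and 0.279% in WTb, and 0.734%, 0.589% and 0.528% in mud1. RPS0A was also the intron with the largest log2 difference between the wild-type sets, 2.47, and its log2 change in mud1 was 3.58 against WTa and 1.11 against WTb. Reads of near-identical paralogues could have been split between gene copies by the authors' counting, which makes paralogue values less certain.

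**Figure D2:**
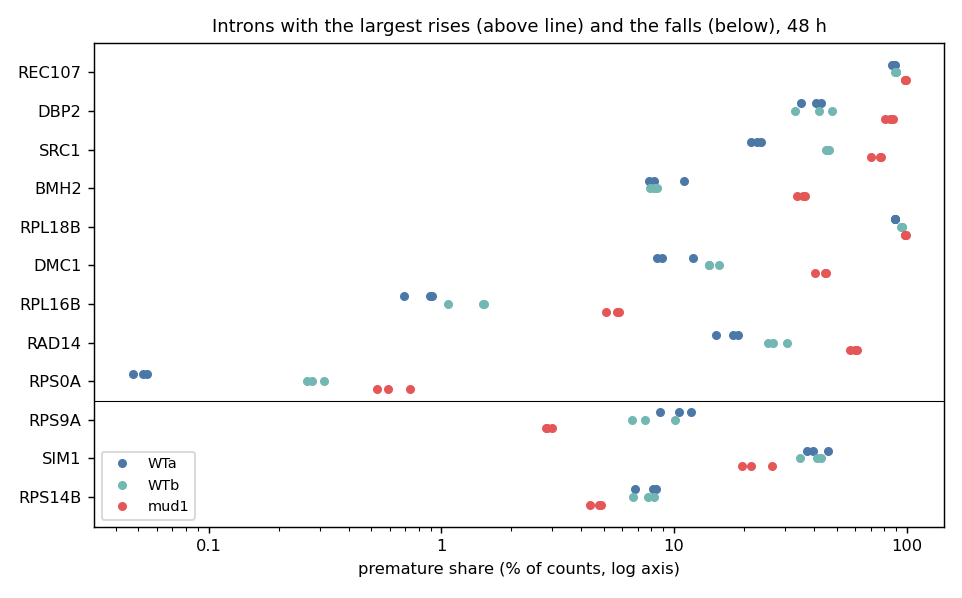
Premature share per library at 48 h (% of counts, log axis) of 9 introns with the largest rises and the 3 that fell, with 3 libraries each of WTa, WTb and mud1 as points. Above the line all mud1 points lie to the right of the wild-type points, and below it, for RPS9A, SIM1 and RPS14B, all lie to the left.

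The 3 introns whose premature share fell did so in different ways. RPS9A, a small-subunit protein gene whose expression is regulated through its intron, went from 10.5%, 11.9% and 8.71% in WTa and 7.47%, 6.58% and 10.1% in WTb to 2.83%, 2.98% and 2.81% in mud1. The log2 change was -1.75 ± 0.16 (SE; adjusted p = 5.1e-12, edgeR). Its premature RNA was 46.9 ± 4.32 CPM in mud1 (SD, n = 3) and 47.0 ± 6.33 in wild type (SD, n = 6), whereas its mature RNA was 1585 ± 156 and 477 ± 94.6 CPM. So the RPS9A share fell with more spliced RNA and a premature level that overlapped between genotypes.

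RPS14B, whose protein is known to bind its own unspliced RNA and block splicing, showed the same arrangement. Its share was 8.15%, 8.35% and 6.83% in WTa, 7.70%, 6.70% and 8.22% in WTb, and 4.78%, 4.86% and 4.36% in mud1 (log2 change -0.76 ± 0.11, SE; adjusted p = 1.6e-07, edgeR). Premature RPS14B RNA was 178 ± 5.37 CPM in mud1 and 174 ± 21.6 in wild type, and mature RNA 3636 ± 186 and 2106 ± 201 CPM (SD, n = 3 and 6). SIM1, a cell wall protein of the SUN family, differed from both in that its RNA was scarcer in mud1. Its share went from 46.0%, 37.2% and 39.8% in WTa and 34.9%, 41.2% and 42.9% in WTb to 26.3%, 21.4% and 19.6%. SIM1 premature RNA was 7.09 ± 3.03 CPM in mud1 against 43.4 ± 8.50, and mature RNA 23.8 ± 5.31 against 64.1 ± 10.3 CPM.

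In CPM, the higher share went for most introns with more premature RNA rather than with less mature RNA. CPM is relative to the library total of both counts, and most shares were low. At an unchanged sum, a higher share of such an intron raises premature CPM by a larger factor than it lowers mature CPM. The values below therefore describe the counts and do not show which RNA changed in the cell. Over all 265 introns the median log2 ratio of mean CPM was 0.89 for premature counts (1.86-fold, above 0 for 252 introns) and -0.16 for mature counts (above 0 for 102). Premature CPM in mud1 lay above all 6 wild-type libraries for 190 introns (71.7%) and below them for 2 (0.755%). Mature CPM lay below them for 89 (33.6%) and above them for 42 (15.8%). Of the 240 introns whose ratio rose, 131 had higher premature CPM without lower mature CPM, 38 had lower mature CPM alone, 48 had both, and 23 had neither, each judged by libraries that did not overlap. Premature and mature CPM were both higher for 29 of the 240. RAD14 belongs to the first kind: premature RNA was 361 ± 19.7 CPM in mud1 against 84.4 ± 14.4 in wild type, and mature RNA was 249 ± 9.34 against 302 ± 57.1 with overlap. DMC1 belongs to the second: mature RNA was 35.5 ± 10.2 against 129 ± 24.6 CPM, and premature RNA, 27.5 ± 9.31 against 17.4 ± 3.22, overlapped.

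**Figure D3:**
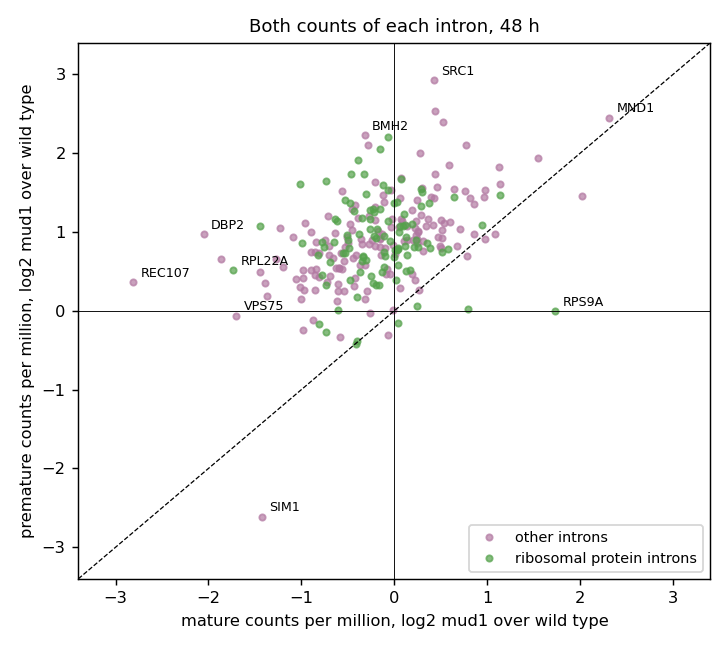
Log2 ratio of mean CPM, mud1 over pooled wild type at 48 h, of mature counts (x) and premature counts (y), 1 point per intron, with ribosomal protein introns in green and others in purple. Points above the dashed diagonal have a higher premature share in mud1. Most points lie above it, with RPS9A and SIM1 below.

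By function, the rise in premature over mature ran through nearly all groups of genes, and the counts below are to be read against the 90.6% of all tested introns that rose. Group counts and medians are against pooled wild type. Where all tested introns of a group rose, this held against each set alone only for splicing machinery. Against WTb, 7 of 9 ubiquitin and proteasome, 6 of 8 tRNA and polymerase III and 7 of 8 mRNA export and decay introns were called higher. Against WTa, 8 of 9 signalling and cell cycle introns were. Under centring the medians of the groups fell on both sides of the library-wide shift, and the median of all tested introns was 0.20. Of 11 cytoskeleton introns 10 rose, with a median log2 change of 1.33 (centred 0.43). ARP2, a subunit of the Arp2/3 complex that nucleates actin branches, went from 5.44%, 6.32% and 5.43% in WTa and 18.1%, 14.4% and 19.5% in WTb to 25.3%, 25.1% and 23.3%. COF1, the actin-severing protein cofilin, went from 4.96%, 5.15% and 5.15% in WTa and 13.3%, 12.6% and 14.6% in WTb to 18.1%, 20.2% and 19.1%. In both genes WTb lay nearer to mud1 than to WTa. ACT1, the actin gene itself, had 3.10%, 2.72% and 2.45% in WTa, 4.02%, 3.81% and 3.91% in WTb, and 7.81%, 6.43% and 6.25% in mud1, a log2 change of 1.11 that equalled the median of all introns.

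All 8 tested introns of mRNA export and decay genes rose, with the highest median of the groups at 1.61 (centred 0.71). YRA1, an mRNA export adaptor that regulates its own splicing, went from 38.1%, 34.8% and 33.5% in WTa and 74.9%, 70.6% and 74.98% in WTb to 80.1%, 82.3% and 77.1%. Most of the difference from WTa was thus also present in WTb. MTR2, an mRNA transport protein with an intron ahead of its coding part, was 98.3% to 98.7% unspliced in the 6 wild-type libraries and 99.3%, 99.5% and 99.6% unspliced in mud1, a log2 change of 1.52. The first intron of SUS1, an mRNA export and transcription factor, went from 27.4%, 24.6% and 26.7% in WTa and 31.6%, 29.4% and 32.8% in WTb to 57.0%, 58.0% and 57.5%. Its second intron went from 14.1%, 12.4% and 12.02% in WTa and 20.7%, 19.8% and 20.6% in WTb to 23.9%, 23.9% and 22.5%. The SUS1 introns thus rose by 1.75 and 0.66 on the log2 scale within 1 gene, and the second lay below the library-wide shift when centred (-0.24). Against WTb alone the second had a log2 change of 0.26 that did not pass (adjusted p = 0.054, edgeR).

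All 5 tested introns of splicing machinery genes rose, with a median of 1.25 (centred 0.35). LSM7, a subunit of the ring that binds U6 RNA and decaying mRNA, went from 2.31%, 1.82% and 1.86% in WTa and 2.83%, 2.16% and 2.74% in WTb to 6.33%, 7.90% and 8.98%. LSM2, of the same ring, rose by 1.34 on the log2 scale. Of 11 introns that host a small nucleolar RNA or lie in a gene that does, 9 rose, with a median of 1.52 (centred 0.62). IMD4, an IMP dehydrogenase gene in that group, went from 17.3%, 20.2% and 19.9% in WTa and 23.7%, 24.9% and 20.9% in WTb to 54.5%, 58.2% and 48.5%. IMD4 went from a largely spliced RNA to one about evenly divided. The exceptions were the introns of RPS22B, with log2 changes of 0.32 and 0.14 that did not pass the test.

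Vesicle transport genes had 19 of 21 tested introns higher, with a median of 1.13 (centred 0.22). YOP1, a membrane-curving protein of the endoplasmic reticulum, went from 2.93%, 2.74% and 2.68% in WTa and 5.36%, 4.72% and 6.99% in WTb to 9.21%, 13.3% and 13.6%. The second intron of YOS1, needed for transport from the endoplasmic reticulum to the Golgi, rose by 1.61 and the first by 0.46. SEC17 and VPS29, with log2 changes of 0.31 and 0.33, did not pass. Of 9 signalling and cell cycle introns, all rose, with a median of 1.02 (centred 0.12). GLC7, the catalytic subunit of protein phosphatase 1, went from 6.83%, 5.98% and 6.48% in WTa and 16.8%, 16.5% and 16.0% in WTb to 22.1%, 27.7% and 27.3%.

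Meiosis genes are scarcely expressed in cells that are not sporulating, and 7 of 14 meiosis introns in the tables were listed in every library and so tested, 5 of which rose. Beside REC107 and DMC1, REC102, needed for meiotic double-strand breaks, went from 68.3%, 55.8% and 50% in WTa and 63.6%, 49.1% and 59.6% in WTb to 77.1%, 85.7% and 84.4%. Its log2 change was 1.74 ± 0.51 (SE; adjusted p = 0.0019, edgeR). Centred, the REC102 change was 0.80 and did not pass (adjusted p = 0.18, limma). The other two, MND1 and HOP2 intron 2, whose proteins act together with Dmc1, had log2 changes of 0.09 and -0.02 and did not pass. So the tested meiosis introns ranged from the largest rise of all introns to values near 0.

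Some groups rose by less than the typical intron. All 9 tested ubiquitin and proteasome introns rose, with a median of 0.70, which centring turned to -0.21. UBC5, a ubiquitin-conjugating enzyme, had the largest change there, from 3.55%, 3.2% and 3.79% in WTa and 5.51%, 4.79% and 6.78% in WTb to 10.5%, 12.7% and 12.4%. PRE3, a catalytic subunit of the proteasome, rose by 1.14 on the log2 scale. All 8 tested introns of tRNA and polymerase III genes rose, with a median of 0.72 (centred -0.18), including PCC1 and POP8 at 1.59 and 1.55. Of 13 mitochondrial introns 10 rose, with a median of 0.80 (centred -0.10), and COI1, MRPL44 and CMC2 had values of -0.20, -0.10 and -0.08 that did not pass. The CMC2 value averages called changes in opposite directions against WTa and WTb, as given above. CMC4, a small protein of the mitochondrial intermembrane space, stood at the other end of that group, from 48.4%, 46.3% and 45.5% in WTa and 61.0%, 61.2% and 60.8% in WTb to 81.8%, 82.6% and 81.7%.

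Of 7 introns of endoplasmic reticulum membrane and lipid genes 6 rose, with a median of 0.79 (centred -0.11). SPT14 and GPI15, which act together in the first step of glycolipid anchor synthesis, rose by 1.30 and 1.18. Cell wall genes gave 3 tested introns without a common direction. ECM33, an anchored cell wall protein, rose from 28.8%, 29.0% and 25.3% in WTa and 33.5%, 28.6% and 34.9% in WTb to 58.2%, 66.2% and 70.2%. SIM1 fell, and its relative SUN4 had a log2 change of 0.12 ± 0.37 (SE) that did not pass.

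Genes known to regulate their own splicing or to be regulated through their introns held 2 of the 3 introns that fell. Of 8 such introns 6 rose and 2 fell, with a median of 1.03 (centred 0.13). Over all tested introns 1.13% fell. The gene lists were chosen with earlier results of these data known, so the falls here are not independent support for a link, which was not tested. DBP2, YRA1 and RPL22B rose, and RPS9A and RPS14B fell. RPL30, whose protein binds its own pre-mRNA and blocks splicing, went from 0.829%, 1.003% and 0.921% in WTa and 0.957%, 0.824% and 1.001% in WTb to 1.68%, 1.59% and 1.74%, a log2 change of 0.87 that centring brought to -0.03. RPL22B went from 61.1%, 58.1% and 64.4% in WTa and 51.1%, 49.9% and 51.4% in WTb to 75.9%, 73.6% and 73.8%. RPL22B was among the introns with lower shares in WTb than in WTa, and mud1 lay above both.

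Of further genes often used in splicing studies, PTC7, GCR1 and TUB3 rose by more than the median of all introns, and TAN1 and HAC1 by less. PTC7, a phosphatase whose unspliced RNA also encodes a protein, went from 27.5%, 26.3% and 25.3% in WTa and 51.4%, 40.3% and 47.8% in WTb to 68.1%, 63.6% and 64.1%. GCR1, the transcriptional activator of glycolytic genes, went from 17.4%, 19.5% and 17.6% in WTa and 18.8%, 17.1% and 26.7% in WTb to 38.9%, 44.7% and 39.0%. TUB3, an alpha-tubulin, rose by 1.20 on the log2 scale, and TAN1, needed for tRNA acetylation, by 0.80. HAC1, the transcription factor of the unfolded protein response, is a special case, since its intron is removed by Ire1 and tRNA ligase outside the spliceosome. HAC1 was 99.0% to 99.2% unspliced in wild type and 99.1%, 99.5% and 99.6% unspliced in mud1. Its log2 change of 0.51 passed (adjusted p = 0.014, edgeR), but not under DESeq2 or limma, nor without mud1 replicate 2 or 3 (log2 changes 0.45 and 0.29), and mud1 overlapped wild type.

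Ribosomal protein introns rose in 94 of 103 cases and fell in 2, with a median log2 change of 1.05 (centred 0.15), and the 162 others rose in 146 and fell in 1, with a median of 1.12 (centred 0.21). RPL26A was among the clearest of the ribosomal protein introns, at 0.452%, 0.439% and 0.361% in WTa, 0.453%, 0.492% and 0.374% in WTb, and 1.98%, 1.82% and 2.03% in mud1. Its log2 change was 2.21 ± 0.11 (SE; adjusted p = 4.9e-18, edgeR), and the wild-type sets overlapped. Both members rose in 38 of 45 pairs of ribosomal protein paralogues, and the members differed by more than 1 on the log2 scale in 9. The widest was RPS9, with -1.75 for RPS9A and 0.49 for RPS9B, followed by RPL16, with 0.99 for RPL16A and 2.44 for RPL16B. In RPS26 the A member had 0.15, which did not pass, and the B member 1.58. RPS14 repeated the arrangement of RPS9, with 0.34 for RPS14A and -0.76 for RPS14B. RPL22A and RPL22B rose by 2.28 and 1.18, from mean shares in wild type of 2.10% and 56.0%.

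Introns were grouped by 5′ splice site, as a description of the classes with no test between them. An annotated position was found for 240 of the 265 tested introns. The first 6 bases, on the gene's strand, were GTATGT in 189 introns (78.8%), with 174 rising and a median log2 change of 1.12. GTACGT was found in 18 introns (7.50%), of which 16 rose and 2 fell, with a median of 0.74. GTAAGT was found in 11 (4.58%, median 1.22), GTATGA in 8 (3.33%, median 1.30) and GTATGC in 6 (2.50%, median 0.64). The other 8 introns (3.33%), which include HAC1, spliced outside the spliceosome, all rose against pooled wild type, with a median of 1.86 and a wide range. Among these REC107 and CQD1, a mitochondrial protein related to coenzyme Q kinases, share GTTCGT and rose by 3.14 and 2.10, SRC1 and RPL20A share GTGAGT and rose by 2.60 and 1.76, and CMC4 with GTTTGT rose by 1.96. At the low end of the same 8 were RPL30 with GTCAGT at 0.87, HAC1 at 0.51 and COX5B with GCATGT at 0.45. The call of HAC1 was lost under other tests, as given above. COX5B had 0.18 against WTb alone, which did not pass (adjusted p = 0.22, edgeR). Both annotated introns that fell start with GTACGT, but so do RPL16B and RPS19A, which rose by 2.44 and 1.90. Relative to the library-wide shift, 5 of the GTACGT introns were higher and 7 lower, against 90 and 38 of those with GTATGT.

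Introns were also grouped by branch sequence and by length. TACTAAC was found near the end of 199 introns (82.9%) by a search of the gene's strand, with a median log2 change of 1.13, and the 41 others had 1.06. Introns over 200 bases (110) had a median of 1.21 and shorter ones (130) 1.10. Outside the RPL and RPS genes, the 22 introns over 200 bases, RPP1B and ASC1 among them, all rose, with a median of 1.54. The 129 shorter ones had a median of 1.10. Among ribosomal protein introns the median was 1.20 for the 83 with TACTAAC and 0.72 for the 6 with another branch sequence. RPS9A and MND1 share the branch sequence CACTAAC and had log2 changes of -1.75 and 0.09. These medians are descriptions of the classes and were not tested.

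The wild-type sets differed from each other in the same direction as mud1 differed from WTa. Premature over mature was higher in WTb than in WTa for 136 introns (51.3%) and lower for 15 (5.66%), with a median log2 difference of 0.37 (edgeR, adjusted p under 0.05). Mean shares ran in the order WTa, WTb, mud1 for 207 of 265 introns. Mud1 had the highest mean for 245 and the lowest for 6. Beside RPS0A, the largest reported differences between the sets were in YRA1 (2.34), RPL33A (1.78) and ARP2 (1.78). RPL33A, a large-subunit protein, showed how much the choice of set matters: it had 0.873%, 0.757% and 0.630% in WTa, 2.78%, 2.41% and 2.41% in WTb, and 2.99%, 3.11% and 3.61% in mud1, which gave log2 changes of 2.15 and 0.36. The opposite held for RPS26A, at 1.66%, 1.94% and 1.56% in WTa, 1.06%, 0.976% and 1.18% in WTb, and 1.33%, 1.43% and 1.78% in mud1. There mud1 lay between the sets, with log2 changes of -0.19 and 0.50. RPS25A, RPL22B, RPL6B and RPS23B were the other introns with the largest falls from WTa to WTb, from -0.70 to -0.53 on the log2 scale.

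**Figure D4:**
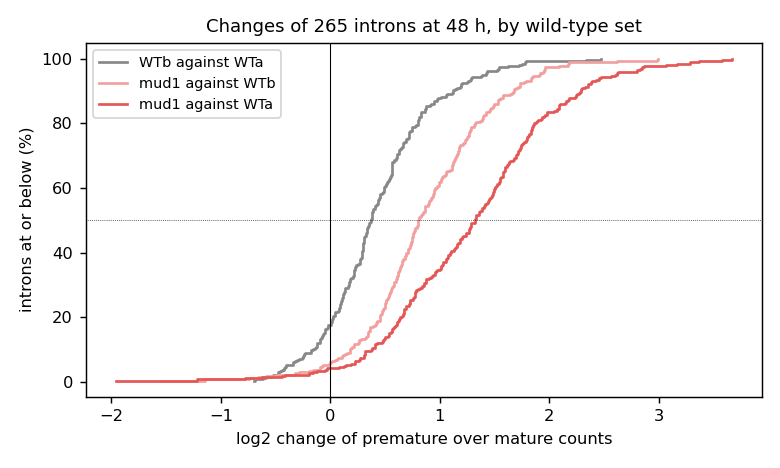
Cumulative share of the 265 introns (%) at or below a given log2 change of premature over mature at 48 h, for mud1 against WTa, mud1 against WTb and WTb against WTa. The curves cross 50% at 1.32, 0.80 and 0.37.

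Abundance, the sum of both counts relative to the other primed targets, moved in both directions. It was higher in mud1 for 93 introns (35.1%) and lower for 109 (41.1%), with a median log2 change of -0.05 (edgeR with TMM scaling, adjusted p under 0.05). Against WTa 87 were higher (32.8%) and 107 lower (40.4%), against WTb 89 (33.6%) and 94 (35.5%), and WTb itself differed from WTa in 67 upward (25.3%) and 85 downward (32.1%). Ribosomal protein targets were higher in 23 and lower in 53 cases, and the others higher in 70 and lower in 56.

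The 8 largest increases in abundance were in genes of various functions. MND1 was at 84.3, 54.4 and 58.7 CPM in WTa, 103, 120 and 110 in WTb, and 444, 468 and 443 in mud1. Its log2 change was 2.38 ± 0.11 (SE; adjusted p = 6.8e-15, edgeR), while its premature share was 25.6% to 32.5% in mud1 and 23.8% to 32.9% in wild type. So MND1 RNA was more abundant while its premature share overlapped between genotypes, which left it below the library-wide shift when centred (-0.82). COX5B, the cytochrome oxidase subunit used when oxygen is low, was at 156, 153 and 149 CPM in WTa, 194, 209.8 and 208 in WTb, and 678, 564 and 525 in mud1. HAC1 was at 1757, 1630 and 1493 CPM in WTa, 3378, 3399 and 3177 in WTb, and 7919, 7135 and 7550.1 in mud1, nearly all of it unspliced. Its log2 change was 1.67 ± 0.07 (SE; adjusted p = 1.1e-15, edgeR), and WTb lay between WTa and mud1.

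SRC1 and ECM33 combined more RNA with a higher share. SRC1 was at 274, 269 and 275 CPM in WTa, 294, 346 and 300.2 in WTb, and 906, 1106 and 1090 in mud1. Its premature RNA was 778 ± 123 against 103 ± 45.8 CPM and its mature RNA 256 ± 12.4 against 190.3 ± 24.6 (mud1, n = 3, and wild type, n = 6, SD). RPS9A was at 522, 387 and 484 CPM in WTa, 534, 678 and 541 in WTb, and 1487, 1604 and 1805 in mud1. The rise of RPS9A was in spliced RNA and that of SRC1 mainly in unspliced RNA. LDS2, a spore wall gene at 5.34 to 7.86 CPM in wild type, and RPS22B intron 1 completed the 8 largest increases, with log2 changes of 1.79 and 1.19.

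Of the 8 largest decreases in abundance, 7 were in introns whose share rose, as did 90.6% of all tested introns. RPL22A was at 4527, 3989 and 4177 CPM in WTa, 4246, 4309 and 4469 in WTb, and 1322, 1391 and 1466 in mud1. Its premature RNA was 129 ± 19.9 CPM in mud1 and 90.3 ± 22.9 in wild type, so the decrease lay in spliced RNA, 1264 ± 52.8 against 4196 ± 194 CPM. The log2 change in RPL22A abundance was -1.65 ± 0.06 (SE; adjusted p = 1.9e-16, edgeR). TEF4, a subunit of translation elongation factor 1B and a small nucleolar RNA host, was at 282, 319 and 291 CPM in WTa, 321, 312 and 354 in WTb, and 127, 118 and 120.0 in mud1, and its share rose by 1.97 on the log2 scale. VPS75, a histone chaperone, and PMI40, a mannose-6-phosphate isomerase, had log2 changes in abundance of -1.32 and -1.14 and in premature over mature of 1.65 and 1.94. SIM1 had the largest decrease in abundance, -1.82 ± 0.12 (SE), and was the 1 intron of the 8 whose share fell. DMC1 (-1.24), YCL012C (-1.03) and TMA20 (-0.99) were the others.

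Mud1 differed from wild type less in log phase, where 127 introns were higher (47.9%) and 21 lower (7.92%), with a median log2 change of 0.31. The difference of the effects was itself tested: the mud1 effect was higher at 48 h for 173 introns (65.3%) and lower for 13 (4.91%), with a median of 0.72 (edgeR, adjusted p under 0.05). Centred libraries gave 106 and 48. DBP2 changed by 3.02 at 48 h and by -0.42 in log phase, RPL16B by 2.44 and -0.83, DMC1 by 2.51 and -0.70, and BMH2 by 2.55 and -0.26. So these 4 introns had log phase values below 0. SCS22, which encodes a membrane contact protein of the endoplasmic reticulum, went the other way, with 0.89 at 48 h and 2.04 in log phase, as did the ubiquitin-conjugating enzyme UBC8, with 0.70 and 1.38. YOS1 intron 2, with 1.61 and 1.52, and PCC1, with 1.59 and 1.72, had differences between the stages that did not pass. RPS9A was at -1.75 and -0.31, and SIM1 at -1.18 and 0.24.

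**Figure D5:**
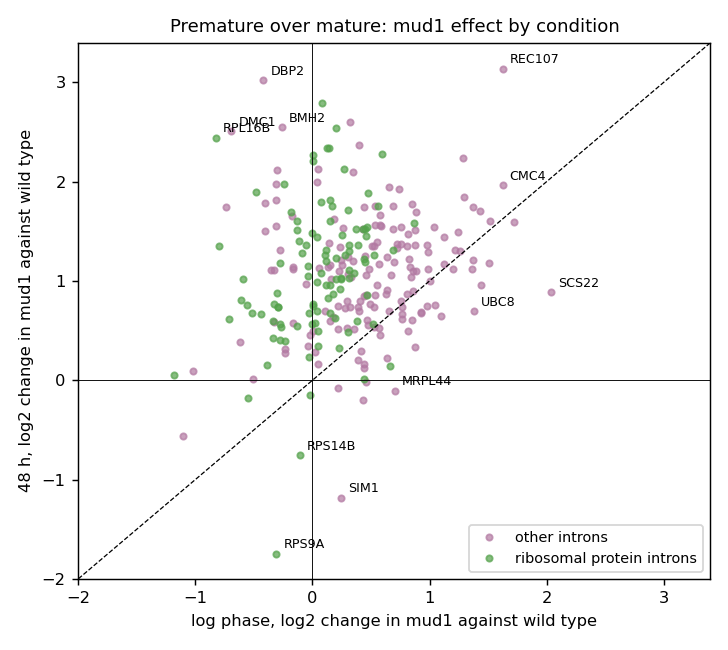
Log2 change of premature over mature in mud1 against pooled wild type in log phase (x) and at 48 h (y), 1 point per intron, with equal change on the dashed diagonal. Most points lie above the diagonal, DBP2, DMC1, RPL16B and BMH2 high above it, and SCS22, UBC8, MRPL44, RPS9A and SIM1 below it.

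The other U1 protein mutant of the study, nam8D, was compared with mud1 directly at 48 h, since both are set against the same wild-type libraries. Premature over mature was higher in nam8D for 25 introns (9.43%) and lower for 47 (17.7%), with a median log2 difference of -0.09 (edgeR, adjusted p under 0.05). The count and its split rested on single libraries. They became 23 higher and 25 lower without mud1 replicate 3, 21 and 31 without mud1 replicate 2, 31 and 33 without nam8D replicate 1, and 19 and 56 without nam8D replicate 2. CQD1 (1.84), ECM33 (1.64), RPS9A (1.45) and RPL7A intron 2 (1.34) were higher in nam8D, and RPL16B (-1.12), SRC1 (-0.83) and SCS22 (-0.83) were higher in mud1. These introns were picked from those named here, for their size, after the values were seen. ACT1, at 0.87, was also higher in nam8D, while BMH2 (0.12) and DBP2 (-0.03) had differences near 0.

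A further 9 introns were listed in the WTb and mud1 libraries but in no WTa library, and were tested against WTb alone in a fit of the 18 libraries without WTa, an alternative chosen after seeing the data. In that fit 232 of 274 introns rose (84.7%, edgeR, adjusted p under 0.05), and of the 9 introns 7 rose and 0 fell, also at an unadjusted p under 0.05. PSP2, an mRNA-binding protein, went from 6.38%, 5.18% and 7.91% in WTb to 19.6%, 23.8% and 24.96% in mud1, a log2 change of 2.10 ± 0.16 (SE). SAR1, the small GTPase of coated vesicles that leave the endoplasmic reticulum, went from 3.30%, 3.13% and 4.02% to 6.33%, 5.63% and 6.08%, a log2 change of 0.83. EFM5 intron 2 (0.92), YNL050C (0.82), MAF1 (0.81), MMS2 (0.69) and GOT1 (0.38) were the others that rose. GIM4 and YDL012C, with log2 changes of 0.17 and -0.10, did not pass. MAF1, the repressor of RNA polymerase III, had shares of 51.0%, 28.4% and 48.4% in mud1, the second of which lay below the lowest of 28.6%, 32.6% and 29.5% in WTb.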

How the data were processed

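RNA extracted with hot acid phenol was analysed by multiplexed primer extension sequencing, per the labels' protocols. The authors deposited a premature and a mature count for each intron and library; by the values these are whole numbers that were not normalized. Build R64 and the tools STAR 2.7.2b, fastp 0.20.0 and FastQC are listed in the submitters' processing notes. How reads were assigned to premature or mature RNA or to gene copies, and whether duplicates were removed, is not stated in the sources at hand. The mutant is mud1D in the labels but is spelled differently in its count table.

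Libraries were grouped by the titles. No libraries of a group were copies, since the most alike replicates still gave a chi-square of 15.8 per degree of freedom. Premature and mature counts entered edgeR 4.0.16 (R 4.3.3) as paired columns in 1 quasi-likelihood fit of 23 libraries, modelling each library and the premature column of each group; tests were two-sided and adjusted by Benjamini-Hochberg over 265 introns at 0.05. Abundance used the sum of both counts with TMM. CPM is a count scaled to the library total over all introns. Library medians were compared by exact permutation (scipy 1.17.1). On simulated counts for mud1 against pooled wild type, changes of 1 and 2 on the log2 scale were recovered in 96.7% and 100% of introns for splicing, and 1.5% of unchanged introns were called. The simulation had the same spread for every intron, no difference between the wild-type sets, and 60 changed introns split between rises and falls. Its rates therefore may not hold for the data here.

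Alternatives were DESeq2 1.42.0, limma 3.58.1 on log2 odds (pseudocounts of 0.5 and 5), libraries centred on their median intron, other count minimums and scalings, the replicate number or strain name as a term, each wild-type set alone, and leaving out each library. The comparison, gene lists and rule for named introns were chosen with earlier results of these data known. The rule took the 10 largest rises and falls in splicing and 8 in abundance without overlap, 2 introns per gene list, 6 per direction for the difference from log phase, 5 for the wild-type sets, and a short set of well-studied splicing substrates. An intron that the rule also named is not reported here. Annotated introns and sequences came from the RefSeq R64 genome, and of 2-intron genes the introns were taken in transcript order.

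Replicate numbers were not used to pair the samples. Same-numbered libraries of different groups deviated from their group means with correlations of -0.188 to 0.172, and 2 of 9 exceeded 0.1. With 3 libraries a group, deviations from the mean depend on each other, so these values cannot decide whether the numbers mark pairs.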

Additional observations from a re-analysis of the deposited data

Results flagged for a closer look

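The mud1 effect on premature over mature differed between 48 h and log phase for 186 introns, by edgeR's test of the difference itself. Of those named, the effect was lower at 48 h for 6. RPS9A differed by -1.44 ± 0.25 (SE, log2; 48 h -1.75, log phase -0.31), SIM1 by -1.42 ± 0.25 (-1.18 and 0.24), and SCS22 by -1.15 ± 0.19 (0.89 and 2.04). MRPL44, a mitochondrial ribosomal protein gene, differed by -0.81 ± 0.19 (-0.10 and 0.71), UBC8 by -0.68 ± 0.15 (0.70 and 1.38) and RPS14B by -0.65 ± 0.16 (-0.76 and -0.11). In MRPL44 and UBC8 the intron was thus more affected in growing cells, and in RPS9A and RPS14B the fall belonged to 48 h.

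The effect was higher at 48 h for the other 5 named. DBP2 differed by 3.44 ± 0.22, RPL16B by 3.27 ± 0.28, DMC1 by 3.21 ± 0.29 and BMH2 by 2.81 ± 0.16, and their changes in log phase were -0.42, -0.83, -0.70 and -0.26. REC102 differed by 2.48 ± 0.76 (1.74 and -0.74), with the widest error of the 11. Wild type in log phase had 5 libraries, 2 of them WTa, and mud1 had 3. The MUD1 target was listed in mud1 log phase, as given above.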

How the results depend on the processing

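Counts of changed introns stayed within 1.5 times the reported one under the alternatives run, except mud1 against WTb with centred libraries, which gave 138 (98 higher, 40 lower) in place of 229. Centring also changed the split for WTa (120 higher, 73 lower) and between the wild-type sets (58 and 55). Leaving out each library gave 238 to 247 introns for pooled wild type, 237 to 245 for WTa, 219 to 231 for WTb, 190 to 202 in abundance, 121 to 151 between the wild-type sets, 175 to 191 for the difference from log phase and 48 to 75 for nam8D against mud1. The difference in median premature share was 4.58 points against WTa alone and 3.28 against WTb alone, and 3.76 to 4.18 with a library left out, where the exact permutation p was 0.0357 without a wild-type library and 0.0714, the smallest possible, without a mud1 library.

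Relative to the library-wide shift, centring turned the log2 change to -0.82 for MND1, -0.45 for COX5B, -0.36 for HAC1, -0.58 for RPS22B intron 1, -0.24 for SUS1 intron 2, -0.030 for RPL30, -0.089 for TAN1, -0.018 for SCS22, -0.21 for UBC8, -0.14 for RPS25A, -0.75 for RPS26A and -0.22 for RPL6B; subtracting the shift does this by construction. WTa alone gave -0.034 for MND1 and -0.19 for RPS26A. MND1 was -0.079 with the strain name as a term and -0.011 to 0.23 with a library left out, and MRPL44 -0.26 to 0.035; neither passed the test in the reported fit, and the cause was not tested. Of the other values of named introns under alternatives, 1219 kept direction and call, 8 gained and 14 lost the call.

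The replicate number as a block gave 240 introns higher and 3 lower against pooled wild type, 239 and 5 against WTa, 226 and 6 against WTb, and 90 and 108 in abundance. The labels do not say whether the numbers mark shared handling. Of 9 best matches between libraries, 4 had the same number, which does not settle it. Introns with few mature counts, such as REC107 in mud1, are limited by depth.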

Other observations

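Several meiosis targets were not tested because they were not listed in all 23 libraries of the study. SAE3, a partner of Dmc1, was listed in all 9 libraries at 48 h and had 20, 14 and 15 premature with 29, 43 and 35 mature counts in WTa, 15, 18 and 17 with 19, 28 and 19 in WTb, and 15, 13 and 9 with 2, 1 and 3 in mud1. Its premature share was thus 24.6% to 47.2% in wild type and 88.2%, 92.9% and 75% in mud1, without a test. SPO1, a phospholipase-like protein of meiosis, had 54.2% to 86.7% in wild type and 84.6%, 66.7% and 75% in mud1, with 8 to 13 counts in a mud1 library and overlap between the genotypes.

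The 8 genes with 2 tested introns showed no common order. Beside SUS1 and YOS1, VMA9, a subunit of the vacuolar proton pump, had log2 changes of 0.21 (not passing) for the first intron and 1.04 for the second. RPL7A rose by 1.52 and 1.72, RPL7B by 0.57 and 0.60, TAD3, a tRNA deaminase subunit, by 0.58 and 0.52, and HMRA1 by 0.75 and 0.91.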
